A study of Mus musculus with 8 samples.

Results

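The genes described here are 40 mouse genes of barrier lipid metabolism, chosen by name with earlier results of these data known. They are grouped by pathway step: the enzymes that build, modify, ship and break down ceramides, with the epidermal lipases and the cholesterol sulfotransferase. All 40 were among the 41388 gene identifiers of the deposited tables, and all 40 passed the filter on low counts that left 16105 genes tested. The libraries came from whole ear skin of adult WT C57Bl/6 mice. In 4 mice the ear received topical calcipotriol (MC903, a vitamin D analog) at 1 nmol daily for 12 days, and 4 mice received the ethanol vehicle. MC903 on the ear is a mouse model of atopic dermatitis, and the comparison asks how transcript levels in such skin differ from those under vehicle. No transgene or mutant allele is named for either group.

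Ceramides fill the spaces between the dead cells of the outer epidermis and limit water loss. Serine palmitoyltransferase starts the pathway by joining serine to an acyl-CoA, ceramide synthases add a fatty acid to the sphingoid base, and desaturases or hydroxylases finish the base. In keratinocytes very long fatty acids are made, omega-hydroxylated and joined to linoleate, giving acylceramides, which lipoxygenases oxidise before attachment to the cornified envelope. The precursors leave the cell as glucosylceramide and sphingomyelin in lamellar bodies and are turned back into ceramide outside it. Several of these enzymes are also made by sebaceous glands and by myelinating Schwann cells, both present in the ear.

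Library totals were 12310466 to 15575518 counts in MC903 ears and 14223908 to 16837221 in vehicle ears. The treatment check, Cyp24a1, a vitamin D-degrading enzyme and target of the vitamin D receptor, averaged 3837 ± 403 CPM (the usual depth-normalised count, with library totals scaled by TMM) in MC903 ears and 18.8 ± 1.73 CPM in vehicle ears (SD, n = 4 each). In vehicle replicate 2 a single salivary transcript, Bpifa2, took 24.5% of all counts, whereas the most abundant gene took at most 2.93% in the MC903 libraries. Keratinocyte markers were present in every library, with Krt5 called in neither direction (log2 fold change 0.34 ± 0.16, SE), Krt10 likewise (-0.27 ± 0.27), and Krt14 and Krt1 higher (1.87 ± 0.19 and 3.19 ± 0.23). Other markers of the same lists were lower, from Krt15 (-2.44 ± 0.31) and Dst (-1.12 ± 0.15) to Sbsn, Calml3 and Col17a1 (-0.53, -0.52 and -0.48). Summed over 12 genes, sebaceous gland markers ran from 3339 to 6879 CPM in MC903 ears and from 5954 to 11759 CPM in vehicle ears. The sum of 10 Schwann cell markers was 511 to 600 CPM in MC903 ears and 934 to 1306 CPM in vehicle ears, and that of 13 leukocyte markers was 1920 to 3809 CPM in MC903 ears and 724 to 934 CPM in vehicle ears. These are bulk samples, so fewer cells of a type and less RNA per cell cannot be told apart.

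The promoters of 5 members whose level relative to a related enzyme differed between the groups are shown. They are 3 members that rose (Sptlc2, Degs2 and Cers3) and 2 that fell (Sptlc3 and Acer1), each with a single RefSeq start that coincides with the 5′ end of the gene in the deposited tables. Each is the 250 bases before the start, read 5′ to 3′ on the gene's strand from RefSeq on GRCm38.p6, the assembly of mm10. Capitals mark every match, on either strand, to 7 motifs: the TATA box TATAAA, the CCAAT box CCAAT, the GC box GGGCGG, the E-box CACGTG, the AP-1 site TGANTCA, the nuclear receptor half-site AGGTCA, and AGNTCANNNAGNTCA, a direct repeat spaced as in vitamin D response elements. The windows are chr12:87388356-87388605 (minus strand, Sptlc2), chr12:108702307-108702556 (minus, Degs2), chr7:66743254-66743503 (plus, Cers3), chr2:139493663-139493912 (plus, Sptlc3) and chr17:56982127-56982376 (minus, Acer1).
Sptlc2: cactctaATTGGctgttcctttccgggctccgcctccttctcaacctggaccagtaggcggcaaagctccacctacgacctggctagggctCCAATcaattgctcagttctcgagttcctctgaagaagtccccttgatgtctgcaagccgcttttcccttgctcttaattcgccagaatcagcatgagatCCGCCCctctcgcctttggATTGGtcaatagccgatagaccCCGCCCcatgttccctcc
Degs2: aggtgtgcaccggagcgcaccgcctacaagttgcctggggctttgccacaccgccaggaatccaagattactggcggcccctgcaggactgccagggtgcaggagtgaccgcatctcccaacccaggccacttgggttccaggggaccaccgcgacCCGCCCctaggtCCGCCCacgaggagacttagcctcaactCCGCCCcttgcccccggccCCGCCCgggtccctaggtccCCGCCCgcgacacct
Cers3: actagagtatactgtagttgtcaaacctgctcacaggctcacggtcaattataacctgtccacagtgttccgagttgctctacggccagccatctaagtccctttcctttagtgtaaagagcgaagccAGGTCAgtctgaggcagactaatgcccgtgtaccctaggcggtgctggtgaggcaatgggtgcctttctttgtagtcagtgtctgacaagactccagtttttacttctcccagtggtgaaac
Sptlc3: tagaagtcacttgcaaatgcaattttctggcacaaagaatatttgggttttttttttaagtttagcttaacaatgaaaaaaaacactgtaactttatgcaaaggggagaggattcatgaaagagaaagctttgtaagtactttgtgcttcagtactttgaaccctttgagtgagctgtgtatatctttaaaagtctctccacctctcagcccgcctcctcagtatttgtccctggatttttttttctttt
Acer1: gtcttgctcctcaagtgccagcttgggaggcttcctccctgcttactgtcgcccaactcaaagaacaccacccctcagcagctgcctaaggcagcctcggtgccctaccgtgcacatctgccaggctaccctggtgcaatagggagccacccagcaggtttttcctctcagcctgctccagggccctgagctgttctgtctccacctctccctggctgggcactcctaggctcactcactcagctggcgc

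GC content was 55.2% in the Sptlc2 window and 35.6% in that of its alternative subunit Sptlc3. It was 69.2% for Degs2, 49.6% for Cers3 and 61.6% for Acer1, against a median of 52.4% over all 32817 RefSeq promoter windows. Degs2 held 5 GC boxes within 94 bases of its start, and Sptlc2 held 2 GC boxes and 3 CCAAT boxes. Cers3 held 1 nuclear receptor half-site, 122 bases before its start, and the Sptlc3 and Acer1 windows held no match. Of the 36 members with a promoter in the RefSeq table, 21 held a GC box at any of their starts, as did 35.3% of all 26994 genes in the table, and per window it was found in 24 of the members' 52 and in 32.7% of all. All members passed the filter on low counts, whereas the genes in the table were not filtered by expression, so the sets are not matched. Those 21 included 6 of 11 members that rose and 6 of the 9 with a promoter that fell, and the rest were not called. A half-site was found at any start in 11 of the 36 members and in 15.8% of all genes. Per window it was found in 14 of the members' 52 and in 14% of all. The members with a half-site include Sgms1, Sgms2 and Sphk1, which have several starts each. The direct repeat was found in 0 members and in 0.0593% of all genes. These matches describe the letters in the windows and say nothing about whether a factor binds there.

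Of the 40 members, 11 were higher and 11 lower in MC903 ears at an adjusted p under 0.05, by edgeR's quasi-likelihood test with Benjamini-Hochberg adjustment over all genes tested. That is 27.5% in each direction, against 21.3% higher and 20.2% lower among all 16105 genes. In all 55% were called, against 41.5%. The members were chosen with earlier results of these data known, and the list was not tested against other genes. Their median standard error was 0.16, against 0.18 over all genes, so the sets are not matched. The median log2 fold change of the members was -0.13 (all genes -0.03), and their median size regardless of sign was 0.53 (all genes 0.43). A change of at least 2-fold was found in 3 members that rose (Degs2, Ugcg and Sult2b1) and 3 that fell (Fa2h, Lipn and Cers4). Among all genes 9.39% rose and 7.66% fell by as much. The 4 MC903 values lay wholly above the 4 vehicle values in 11 members and wholly below in 8, against 19.8% and 18.9% of all genes. Each of the 8 steps held at least 1 called gene, and 5 held both genes that rose and genes that fell. P-values weigh the difference between the groups against the spread of these libraries within each group.

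**Figure D1:**
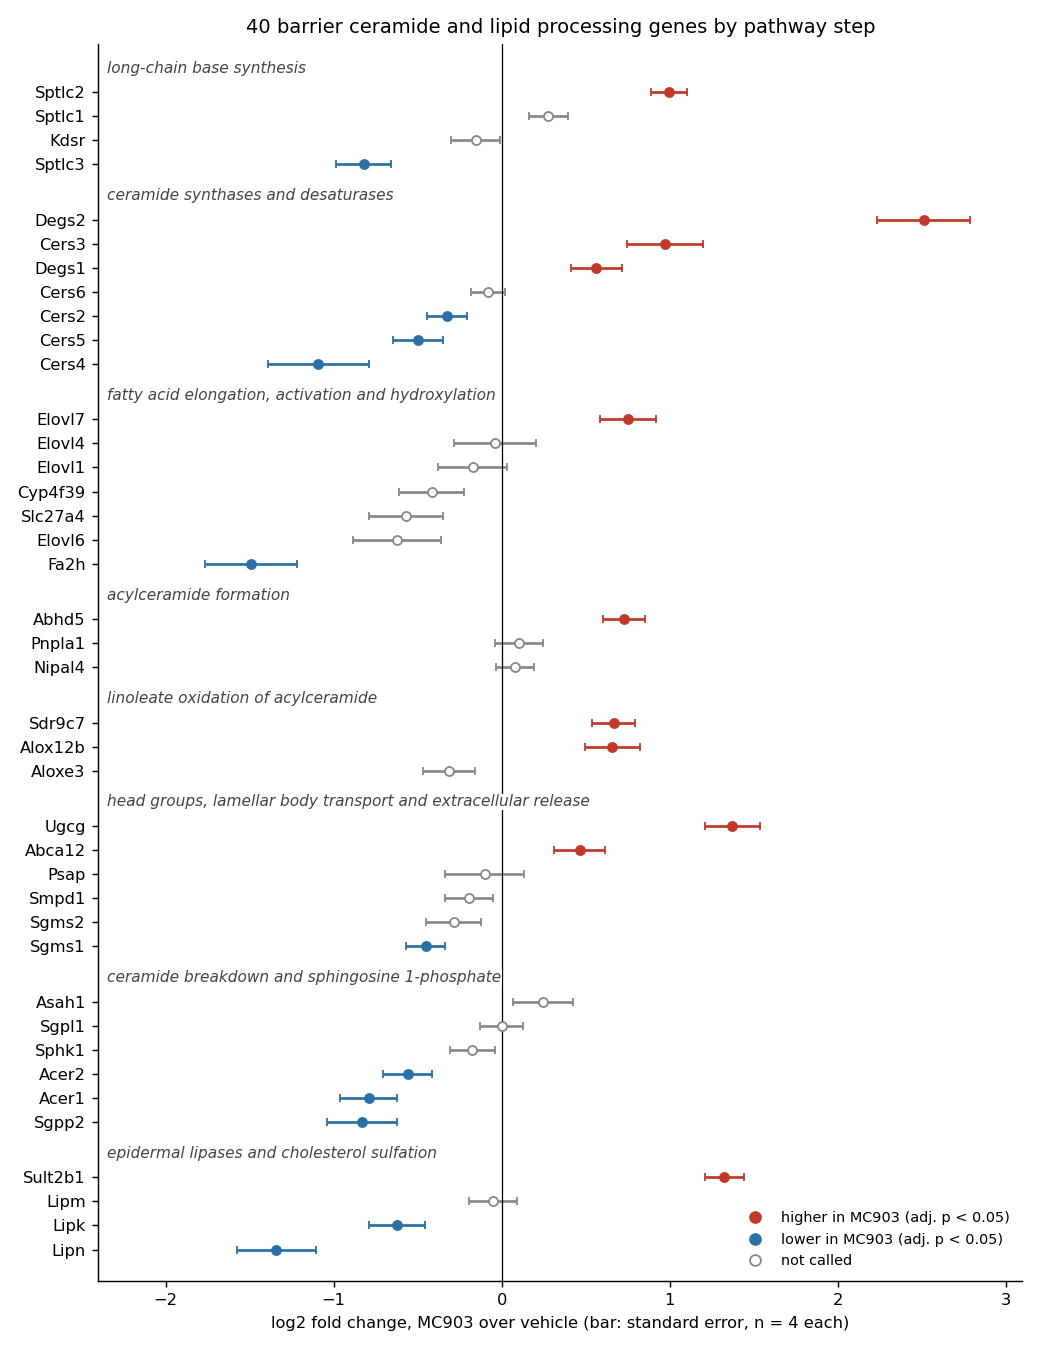
Log2 fold change of each of the 40 members, MC903 over vehicle, with its standard error (n = 4 each), grouped by pathway step; filled red and blue points passed the test as higher and lower, and open grey points did not. Degs2 lies farthest to the right at 2.51 and Fa2h farthest to the left at -1.49.

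In long-chain base synthesis, transcripts of 1 catalytic subunit rose and those of the other fell. Sptlc2, the catalytic subunit that makes the usual long-chain base (chromosome 12, 87305058 to 87388355, mm10), stood at 76.5, 74.8, 76.8 and 69.1 CPM in MC903 replicates 1 to 4, against 38.6, 34.0, 37.4 and 39.0 CPM in vehicle replicates 1 to 4. The groups were far apart, with tight replicates. Its log2 fold change was 1.00 ± 0.11 (adjusted p = 3.27e-05). Sptlc3, the alternative catalytic subunit, which favours other acyl-CoA substrates (chromosome 2, 139493913 to 139637674), was at 44.1, 42.7, 39.2 and 55.3 CPM in MC903 ears and at 62.0, 74.8, 100.5 and 82.7 CPM in vehicle ears. Every MC903 value was below every vehicle value (-0.82 ± 0.16, adjusted p = 0.00225). Of both catalytic subunits, Sptlc3 made up 63.2% ± 4.40 of the pair's RPKM (CPM per kilobase of exon) in MC903 ears and 85.6% ± 2.65 in vehicle ears (SD, n = 4 each). Sptlc1, the shared partner subunit, averaged 80.4 ± 6.58 CPM in MC903 ears and 66.3 ± 5.75 CPM in vehicle ears. Its groups did not overlap, but it did not pass the test (adjusted p = 0.0725). Kdsr, the ketosphinganine reductase of the next step, did not pass either (-0.15 ± 0.15).

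The desaturases rose together, Degs2 by far more. Degs2, which hydroxylates the sphingoid base to give phytoceramides (chromosome 12, 108686792 to 108702306), was at 217.5, 101, 92.8 and 92.3 CPM in MC903 ears, against 21.0, 19.1, 21.6 and 26.7 CPM in vehicle ears. MC903 replicate 1 was more than double the rest of its group, and even the lowest MC903 value was above all vehicle values. The log2 fold change was 2.51 ± 0.28 (adjusted p = 4.28e-05), the largest among the members, and 2.11 without MC903 replicate 1. A stretch of 13.6% of the exon length of Degs2 overlaps Evl on the opposite strand, and the counting is not stated to use strand; Evl had at most 93 counts in any library, against at least 248 for Degs2. Degs1, the desaturase that makes the common sphingosine base, averaged 335.5 ± 43.1 CPM in MC903 ears and 227 ± 25.2 CPM in vehicle ears (0.56 ± 0.15, adjusted p = 0.0110), a call lost with library sizes alone as scaling (adjusted p = 0.132).

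Ceramide synthases, which differ in the length of fatty acid they attach, split. Cers3, the synthase for ultra-long acyl chains that the barrier needs (chromosome 7, 66743504 to 66823692), was at 420.7, 245, 227 and 273 CPM in MC903 ears and at 177, 115, 178 and 125 CPM in vehicle ears. No values overlapped (0.97 ± 0.22, adjusted p = 0.00529). Cers4 (chromosome 8, 4493026 to 4531680), a synthase of skin appendages, was at 314, 262, 263 and 527 CPM in MC903 ears, against 405, 752, 740 and 1016 CPM in vehicle ears. Here MC903 replicate 4 reached into the vehicle range (-1.09 ± 0.30, adjusted p = 0.0134). Cers5 and Cers2 also fell, by 0.50 ± 0.15 and 0.33 ± 0.12 on the log2 scale (adjusted p = 0.0202 and 0.0447). The Cers2 call was lost in 10 of 16 alternatives and that of Cers5 in 3, with adjusted p up to 0.121 and 0.0655. Cers6 was not called (-0.08 ± 0.10). By RPKM, Cers3 held 53.6% ± 7.04 of the 5 synthases in MC903 ears and 27.7% ± 7.66 in vehicle ears, and Cers4 held 16.8% ± 5.09 in MC903 ears and 35.0% ± 9.41 in vehicle ears. Those shares divide by annotated exon length, 12268 bases for Cers4 and 3251 for Cers3. In CPM, Cers4 averaged above Cers3 in both groups (342 and 292 in MC903 ears, 728 and 149 in vehicle ears).

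**Figure D2:**
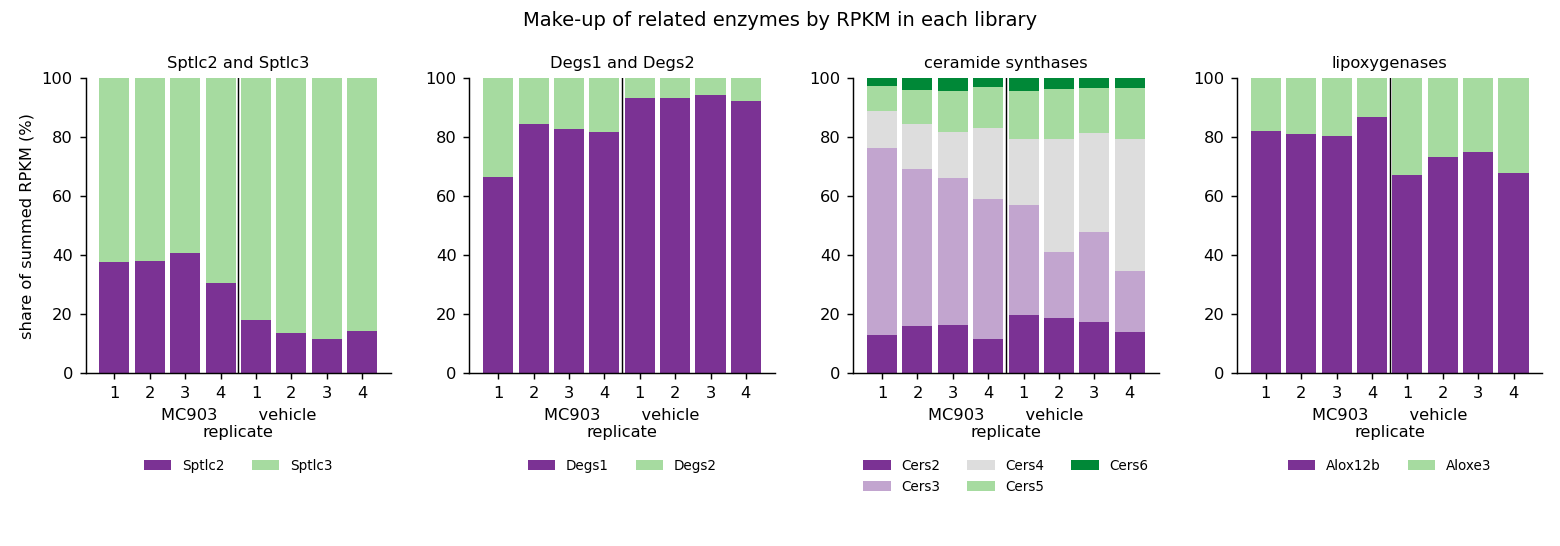
Share of summed RPKM, in percent, taken by each enzyme of 4 groups in each of the 4 MC903 and 4 vehicle libraries. The Sptlc2, Degs2, Cers3 and Alox12b shares are larger in each MC903 library than in every vehicle library.

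Among the genes that elongate, activate and hydroxylate fatty acids, 1 rose and 1 fell. Elovl7, an elongase of very long fatty acids (chromosome 13, 108214404 to 108287105), was at 254, 347, 305 and 396 CPM in MC903 ears and at 174, 178, 194 and 227 CPM in vehicle ears. The groups did not overlap (0.75 ± 0.17, adjusted p = 0.00444). Fa2h, the fatty acid 2-hydroxylase (chromosome 8, 111345135 to 111393824), was at 125, 115, 113 and 156 CPM in MC903 ears, against 305, 262, 252 and 609.6 CPM in vehicle ears. All MC903 values were below all vehicle values, and vehicle replicate 4 stood far above its group (-1.49 ± 0.27, adjusted p = 0.00134; -1.11 without that library). Elovl4, which makes the ultra-long chains of acylceramides, was the most abundant member per kilobase in both groups, at 665 ± 168.5 CPM per kilobase in MC903 ears and 684 ± 189 in vehicle ears. It was not called (log2 fold change -0.04 ± 0.24). Elovl1, an elongase of saturated very long chains, was not called (-0.17 ± 0.20), nor was Cyp4f39, the mouse omega-hydroxylase (-0.42 ± 0.19). Elovl6, which extends palmitate, and Slc27a4, an acyl-CoA synthetase and fatty acid transport protein, were at -0.62 ± 0.26 and -0.57 ± 0.22. They missed the threshold (adjusted p = 0.0771 and 0.0572) but were called lower in 5 and 7 of 16 alternatives.

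Of the genes that form acylceramide, Abhd5 alone was called. Abhd5, a co-activator of lipases and of the transacylase Pnpla1 (chromosome 9, 122351608 to 122381524), was at 144, 109, 115 and 113 CPM in MC903 ears, against 71.0, 72.3, 79.4 and 67.5 CPM in vehicle ears. The groups stood well apart (0.73 ± 0.13, adjusted p = 0.000870). An antisense transcript, A730085K08Rik, overlaps 26.3% of its exon length and had at most 90 counts in any library, against at least 941 for Abhd5. Pnpla1 itself averaged 42.1 ± 7.49 CPM in MC903 ears and 39.3 ± 3.17 CPM in vehicle ears (0.10 ± 0.14). Nipal4, an ichthyosis gene needed for acylceramide in mice, averaged 76.8 ± 1.90 CPM in MC903 ears and 72.6 ± 7.98 CPM in vehicle ears (0.08 ± 0.11).

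The oxidation of the linoleate in acylceramide runs through Alox12b, Aloxe3 and Sdr9c7 in turn, and the enzymes before and after Aloxe3 rose. Alox12b, the 12R-lipoxygenase (chromosome 11, 69156989 to 69169792), was at 173, 113, 132 and 162.5 CPM in MC903 ears and at 91.3, 93.1, 109 and 74.5 CPM in vehicle ears. The lowest MC903 value lay just above the highest vehicle value (0.66 ± 0.16, adjusted p = 0.00817). Sdr9c7, the dehydrogenase that acts last (chromosome 10, 127898518 to 127911761), was at 112, 121, 108 and 99.5 CPM in MC903 ears, against 73.3, 61.7, 80.7 and 61.3 CPM in vehicle ears. Its groups were also separate (0.67 ± 0.13, adjusted p = 0.00180). Aloxe3, which lies beside Alox12b on chromosome 11, averaged 79.3 ± 15.9 CPM in MC903 ears and 98.7 ± 12.0 CPM in vehicle ears and was not called (-0.32 ± 0.16, adjusted p = 0.124).

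Of the genes for head groups and export, glucosylceramide synthase changed most. Ugcg (chromosome 4, 59189257 to 59222833) was at 161, 266, 238 and 214 CPM in MC903 ears, against 93.0, 77.5, 77.7 and 91.3 CPM in vehicle ears. MC903 replicate 1 was the lowest of its group and still above all vehicle values (1.37 ± 0.16, adjusted p = 7.17e-05). Sgms1, a sphingomyelin synthase (chromosome 19, 32122727 to 32389714), was at 92.3, 105, 103 and 111 CPM in MC903 ears and at 144, 132, 157 and 130 CPM in vehicle ears. It fell with no overlap (-0.45 ± 0.12, adjusted p = 0.00998), a call missed narrowly with library sizes alone (adjusted p = 0.0506). Sgms2, the other sphingomyelin synthase, was not called (-0.29 ± 0.16). Abca12, which loads glucosylceramide into lamellar bodies, averaged 179 ± 30.4 CPM in MC903 ears and 130 ± 14.2 CPM in vehicle ears (0.47 ± 0.15, adjusted p = 0.0297). That call was lost in 9 of 16 alternatives, with adjusted p up to 0.201. Smpd1, the acid sphingomyelinase, and Psap, the saposin precursor, were not called (-0.19 ± 0.14 and -0.10 ± 0.23).

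Ceramide breakdown had no member higher and 3 of 6 lower. Acer1, the alkaline ceramidase of epidermis (chromosome 17, 56953490 to 56982126), was at 244, 156, 192.5 and 228 CPM in MC903 ears and at 306, 368, 357.5 and 388 CPM in vehicle ears. All MC903 values were below all vehicle values (-0.79 ± 0.17, adjusted p = 0.00332). Sgpp2, a sphingosine 1-phosphate phosphatase (chromosome 1, 78310345 to 78420289), was at 23.8, 17.7, 20.01 and 27.4 CPM in MC903 ears, against 32.6, 29.7, 40.4 and 55.5 CPM in vehicle ears. It fell without overlap of the groups (-0.83 ± 0.21, adjusted p = 0.00800). However, 248 bases of its exons overlap Farsb on the opposite strand. Farsb had up to 1324 counts, against 213 to 889 for Sgpp2. Acer2, the Golgi ceramidase, averaged 28.3 ± 4.27 CPM in MC903 ears and 41.6 ± 5.95 CPM in vehicle ears (-0.56 ± 0.15, adjusted p = 0.0103). The acid ceramidase Asah1 (0.25 ± 0.18), the sphingosine kinase Sphk1 (-0.17 ± 0.13) and the lyase Sgpl1 (-0.00 ± 0.13), which ends the pathway, were not called.

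The cholesterol sulfotransferase rose, and 2 of 3 epidermal lipases fell. Sult2b1, which makes cholesterol sulfate (chromosome 7, 45729983 to 45759612), was at 150.0, 134, 149 and 156 CPM in MC903 ears, against 65.7, 53.0, 55.4 and 61.0 CPM in vehicle ears. It rose 2.51-fold with little spread (1.33 ± 0.12), and its adjusted p of 9.66e-06 was the smallest of the 40. The lipases Lipk, Lipn and Lipm are neighbours on chromosome 19. Lipn (34067358 to 34084918) was at 3.91, 6.17, 3.78 and 5.44 CPM in MC903 ears and at 12.1, 10.5, 17.0 and 8.99 CPM in vehicle ears, the lowest level in CPM among the members. The groups were separate (-1.34 ± 0.24, adjusted p = 0.000990). Lipk averaged 21.5 ± 3.83 CPM in MC903 ears and 32.9 ± 5.84 CPM in vehicle ears (-0.62 ± 0.17, adjusted p = 0.0119), and Lipm, which held 78.5% ± 2.78 of the RPKM of the 3 lipases in MC903 ears and 68.5% ± 1.18 in vehicle ears, was not called (-0.05 ± 0.14). Over 139 bases the exons of Lipm overlap Ankrd22 on the opposite strand, which had up to 857 counts, against at least 1385 for Lipm. How reads shared between related lipases were counted is not given in the sources used here.

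**Figure D3:**
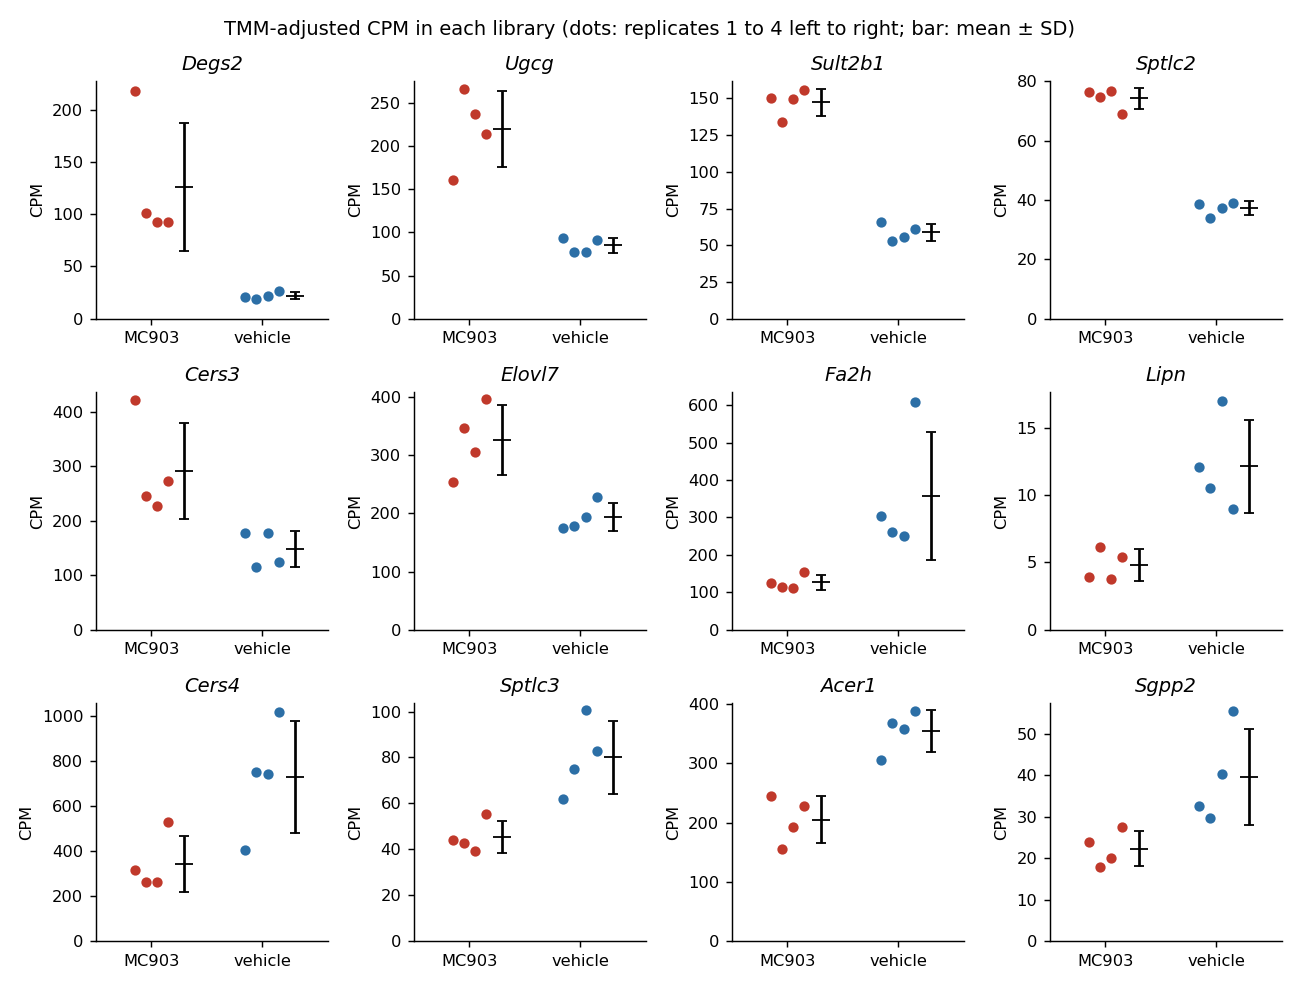
CPM in each library for 12 members, with MC903 on the left and vehicle on the right; dots are replicates 1 to 4 from left to right, and the bar is the mean ± SD. The groups do not overlap in any panel except Cers4, where MC903 replicate 4 at 527 CPM exceeds vehicle replicate 1 at 405 CPM.

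Ratios within a library do not depend on how libraries are scaled to each other, so 8 pairs of related members were compared as the log2 ratio of their counts per kilobase. The pairs were chosen with earlier results of these data known and restate the values of their single genes, so the ratios are given as a description, with no test. The level of a ratio depends on the annotated exon lengths of its genes, while its difference between the groups does not. In 7 of 8 pairs the MC903 and vehicle ratios did not overlap. Sptlc3 relative to Sptlc2 was 0.79 ± 0.28 in MC903 ears and 2.59 ± 0.31 in vehicle ears (SD, n = 4 each), a ratio 3.497-fold lower. Degs2 relative to Degs1 was 3.62-fold higher, at -1.97 ± 0.66 in MC903 ears and -3.83 ± 0.18 in vehicle ears. For Cers3 relative to Cers4 the values were 1.71 ± 0.56 in MC903 ears and -0.33 ± 0.81 in vehicle ears, a 4.11-fold higher ratio. Elovl7 relative to Elovl6 was -0.05 ± 0.41 in MC903 ears and -1.49 ± 0.13 in vehicle ears, 2.72-fold higher. Acer1 relative to Asah1 was 0.94 ± 0.36 in MC903 ears and 2.02 ± 0.33 in vehicle ears, 2.11-fold lower. Aloxe3 relative to Alox12b was -2.27 ± 0.31 in MC903 ears and -1.29 ± 0.26 in vehicle ears, so the lipoxygenases changed unequally. Sgpp2 relative to Sgpl1 was likewise lower, at -2.08 ± 0.21 in MC903 ears and -1.27 ± 0.33 in vehicle ears. The sphingomyelin synthases were the exception, with overlapping Sgms2 to Sgms1 ratios of -1.29 ± 0.19 in MC903 ears and -1.46 ± 0.11 in vehicle ears.

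**Figure D4:**
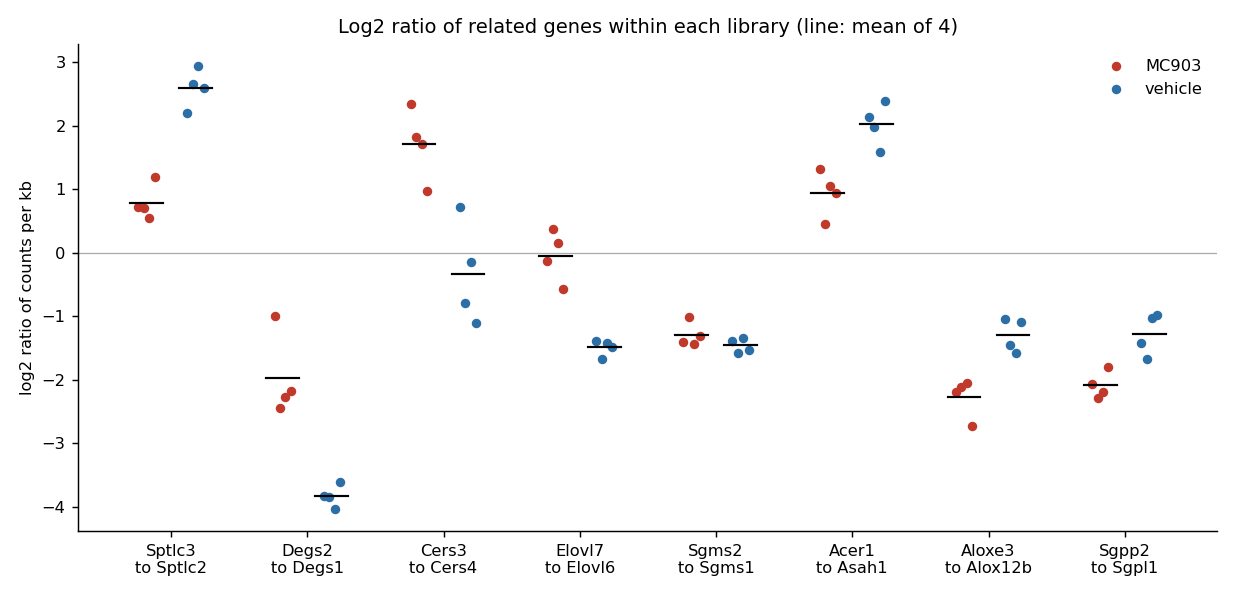
Log2 ratio of counts per kilobase for 8 pairs of related genes in each library, with MC903 at the left and vehicle at the right of each pair and the mean of 4 as a line. The clouds are apart in every pair except Sgms2 to Sgms1.

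Compared per kilobase of exon, the members kept a wide range of levels. Elovl4, Psap (188 ± 46.2 CPM per kilobase in MC903 ears, 201 ± 56.3 in vehicle ears) and Elovl1 (138 ± 34.9 in MC903 ears, 155 ± 26.5 in vehicle ears) were the 3 highest in both groups. Psap and Elovl1 differed by no more than their spread. At the other end Sptlc2 was the lowest of the 40 in vehicle ears, at 4.59 ± 0.28 CPM per kilobase, and 34th in MC903 ears, at 9.16 ± 0.44. These ranks depend on annotated exon length, which is 8115 bases for Sptlc2 and 12268 for Cers4. In CPM Sptlc2 was at 37.3 in vehicle ears, above Lipn, Degs2, Cyp4f39, Sgms2 and Lipk. Degs2 stood 16th in MC903 ears and 36th in vehicle ears, with 35.2 ± 17.1 CPM per kilobase in MC903 ears and 6.18 ± 0.91 in vehicle ears. Fa2h was 13th in MC903 ears and 5th in vehicle ears, and Cers4 was 21st in MC903 ears and 8th in vehicle ears.

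Cers4, Fa2h and Elovl6 shared the highest library of each group with the sebaceous gland markers. The same libraries were also highest for Elovl4, Elovl7, Kdsr, Cers5, Slc27a4, Acer2 and Sgpp2. Elovl7 was called higher in MC903 ears, so the pattern is not particular to Cers4, Fa2h and Elovl6 or to members that fell. Of those 12 markers, 8 were lower and none higher (median log2 fold change -0.81), none was at 0 in any library (1 of them, Elovl3, is also among the other pathway genes below), and MC903 replicate 4 and vehicle replicate 4 had the highest sums of their groups, as they had the highest Cers4, Fa2h and Elovl6. The comparison with the markers was chosen after the values were seen and is given as a description. As a percentage of the marker sum, Cers4 was 7.68 ± 0.25 in MC903 ears and 8.32 ± 1.23 in vehicle ears (SD, n = 4 each), and the groups overlapped. Scd1 makes up 42.2% to 58.7% of that sum. Against the other 11 markers, Cers4 was 13.7% to 15.1% in MC903 ears and 16.4% to 20.7% in vehicle ears, without overlap. For Fa2h the percentage of the whole sum was 2.996 ± 0.51 in MC903 ears and 4.11 ± 1.23 in vehicle ears, with overlap. Against the other 11 markers Fa2h was 4.45% to 6.29% in MC903 ears and 6.66% to 12.4% in vehicle ears, without overlap. Elovl6 was 8.56 ± 0.72 percent of the whole sum in MC903 ears and 7.12 ± 1.24 percent in vehicle ears. Against the other 11 markers it was 13.3% to 18.4% in MC903 ears and 14.1% to 20.1% in vehicle ears, with overlap in both comparisons. As a percentage of Krt5, Cers4 was 21.3 ± 6.71 in MC903 ears and 57.9 ± 20.1 in vehicle ears. Fa2h was 7.96 ± 0.91 and 28.5 ± 13.9, and Elovl6 was 24.0 ± 9.33 and 47.3 ± 6.49, in the same order. None of these overlapped. Krt5 itself was higher in each MC903 library than in every vehicle library, though not called. Schwann cell markers, some of which mark cells that also express Fa2h and Cers2, were lower in 9 of 9 tested (median -1.08), and none was at 0. The part of either cell type in the falls of Cers4, Fa2h and Cers2 was not tested.

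**Figure D5:**
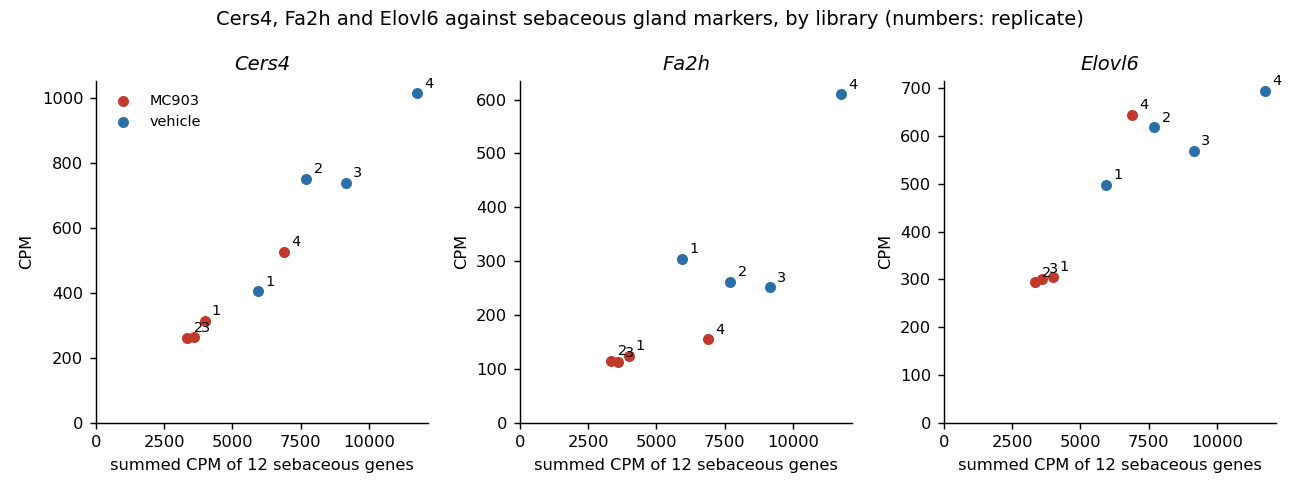
CPM of Cers4, Fa2h and Elovl6 against the summed CPM of 12 sebaceous gland markers in each library, MC903 in red and vehicle in blue, numbered by replicate. In all 3 panels MC903 replicate 4 lies above its group and vehicle replicate 4 is the highest point, with Cers4 from 262 to 1016 CPM over marker sums of 3339 to 11759 CPM.

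Epidermal markers moved less evenly. Of 11 suprabasal keratinocyte markers 3 were higher and 2 lower, and of 8 basal markers 1 was higher and 3 lower. The summed suprabasal level was 15009 to 17354 CPM in MC903 ears and 13705 to 15025 CPM in vehicle ears. Krt1 alone averaged 1848 CPM in MC903 ears and 202 CPM in vehicle ears. That gap is nearly as large as the gap between the mean suprabasal sums, 16355 and 14509 CPM. The basal sum was 9650 to 11327 CPM in MC903 ears and 6602 to 9052 CPM in vehicle ears. Krt14 alone gave 6378 to 8065 CPM of the basal sum in MC903 ears and 1727 to 2277 CPM in vehicle ears. Without it, a choice made after the values were seen, the direction turned. The other 7 basal markers summed to 3060.0 to 3870.3 CPM in MC903 ears and 4850.1 to 7053.5 CPM in vehicle ears. Krt15 made up most of that difference, at 407 to 884 CPM in MC903 ears and 1812 to 4002.5 CPM in vehicle ears. No marker of either list was at 0. Of the other cell types, 6 of 10 adipocyte markers and 4 of 10 skeletal muscle markers were lower, 2 hair follicle markers were higher and 7 lower of 10 tested, and 13 of 13 leukocyte markers were higher. The rises of Degs2, Ugcg, Sult2b1, Sptlc2 and Cers3 stood beside these sums, and the part of epidermal cell numbers in them was not tested.

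A further 40 genes of the same pathway, listed by their place in its biochemistry, were read from the same fit. Of the 38 tested, 6 were higher and 9 lower, 39.5% in all, which is near the 41.5% of all genes. Cers1 and Elovl2, the untested members, had at most 6 and 4 counts in any library. The 3 with the smallest p among those that rose were Smpd3, Sptssb and B4galt5. Smpd3, neutral sphingomyelinase, averaged 53.1 ± 10.3 CPM in MC903 ears and 21.2 ± 5.93 CPM in vehicle ears (1.32 ± 0.20, adjusted p = 0.000391). Sptssb, the small subunit that shifts serine palmitoyltransferase to longer acyl-CoAs, had 103, 66, 72 and 24 counts in MC903 ears and 4, 0, 2 and 13 counts in vehicle ears. As a share of library totals that is a ratio of 15.6 (95% exact interval 9.77 to 26.3, counting error only). Vehicle replicates 1 to 3 were close to the detection floor of 3 counts. Vehicle replicate 4 held 13 of the 19 vehicle counts, and without it the ratio was 38.0 (17.2 to 104.4). In the fit, which takes the spread between libraries into account, the log2 fold change of Sptssb was 3.98 ± 0.62 (adjusted p = 0.000452). B4galt5, which makes lactosylceramide from glucosylceramide, averaged 20.1 ± 4.88 CPM in MC903 ears and 8.497 ± 1.604 CPM in vehicle ears (1.24 ± 0.19, adjusted p = 0.000477). Among those that fell, Elovl5, an elongase of polyunsaturated fatty acids, averaged 99.1 ± 40.0 CPM in MC903 ears and 241 ± 60.2 CPM in vehicle ears (-1.28 ± 0.26, adjusted p = 0.00266). Arsa, arylsulfatase A, and Abca2, a lipid transporter of myelinating cells, fell by 0.76 ± 0.17 and 0.70 ± 0.15 on the log2 scale (adjusted p = 0.00375 and 0.00392).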

How the data were processed

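RNA sequencing of whole ear skin gave 1 deposited table per library. The authors' tables hold whole-number counts per Ensembl gene, beside CPM (counts scaled to the library total) and RPKM (that CPM per kilobase of gene length), per the file headers. STAR 2.0.4b, featureCounts 1.4.5, Subread and the mm10 build are named in the submitters' processing notes. Per the labels' protocols ribosomal RNA was removed and single reads of 50 bases were sequenced. Recomputed from the counts, CPM differed from the deposited CPM by at most 2.33e-10, and CPM per kilobase from the deposited RPKM by at most 5.82e-11. How strand and multiply mapped reads were treated and which annotation was used are not given in the sources used here.

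Of 41388 identifiers, 40254 matched a gene symbol, all 40 members among them. Counts were filtered with filterByExpr, scaled by TMM, and compared by the quasi-likelihood test of edgeR 4.0.16 (R 4.3.3) with group as the only term and with adjusted p-values over all 16105 genes tested. CPM values in the text are TMM-adjusted. Shares of related enzymes use the deposited RPKM. RPKM divides by annotated exon length, so shares of genes with unlike lengths depend on the annotation. Ratios of counts per kilobase had 0.5 added to each count; exact intervals used scipy 1.17.1. Library totals were 12310466 to 16837221 counts, and a count of 3, the detection floor, was 0.178 to 0.244 CPM. Intervals and floors cover counting error only; no molecular identifiers are named, so reads may not be independent molecules. Replicates differed by far more than sampling noise (chi-square per degree of freedom 10.1 or more).

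The members, the lists and the pairs were chosen with earlier results of these data known. Values in every library are given for the 2 members with the smallest p among those called in each step and for any called with at least a 2-fold change. Of the other pathway genes, the 3 with the smallest p in each direction are named, and other genes were named after their values were seen. One of the other pathway genes is counted in the totals and otherwise not reported here. Alternatives were other scalings, no filter and a stricter filter (1 CPM in 4 libraries), DESeq2 1.42.0, limma-voom (limma 3.58.1), the replicate number as a block, and leaving out each library in turn. Sequences are from RefSeq tables on GRCm38.p6.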

Additional observations from a re-analysis of the deposited data

Results flagged for a closer look

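A library was picked out where its distance to the nearest other library of its group took up more of the group's whole range than Dixon's 95% critical value for 4 samples. Over the 154 groups of 4 values examined (the members and 37 tested pathway genes beside them), 12 were picked out, and chance alone picks about 1 in 20. Of the 12, 5 were values of MC903 replicate 1. Among the members, Degs2 was at 217.5 CPM in MC903 replicate 1, against 92.3 to 101 CPM in the other MC903 libraries, and Abca12 was lowest in the same library, at 134 CPM against 190.2 to 197 CPM. In MC903 replicate 4, Elovl4 was at 2769 CPM (1651 to 1829 in the rest of the group) and Elovl6 at 644.5 CPM (294 to 305), and sebaceous markers were the highest of that group. Fa2h was at 609.6 CPM in vehicle replicate 4, against 252 to 305 CPM. Of the other pathway genes, MC903 replicate 1 was low in Ormdl1 (11.2 CPM) and Acer3 (33.4 CPM) and high in Arsa (18.4 CPM). MC903 replicate 4 was high in Elovl5 (159 CPM) and low in Gltp (382 CPM). Vehicle replicate 1 was low in Ormdl3 (40.1 CPM), and vehicle replicate 4 was high in Hacd2 (205 CPM). The cause of these values was not tested.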

How the results depend on the processing

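Of the 22 members called, 17 were called under all 16 alternatives (9 higher, 8 lower), and none changed sign. Cers2, Abca12, Cers5, Degs1 and Sgms1 each lost the call under at least 1 alternative, as given with them. Of the 18 not called, 6 were called under at least 1: Elovl6, Slc27a4, Sptlc1, Cyp4f39, Aloxe3 and Smpd1, the last 3 only without MC903 replicate 1. Leaving out each library in turn gave 10 to 12 members higher and 9 to 14 lower, 5 to 7 other pathway genes higher and 7 to 11 lower, and 2953 to 3734 genes higher and 2554 to 3392 lower overall. The ratio differences ranged from -1.94 to -1.69 (Sptlc3 to Sptlc2), 1.53 to 2.01 (Degs2 to Degs1), 1.78 to 2.39 (Cers3 to Cers4), 1.30 to 1.62 (Elovl7 to Elovl6), 0.076 to 0.22 (Sgms2 to Sgms1), -1.22 to -0.92 (Acer1 to Asah1), -1.08 to -0.83 (Aloxe3 to Alox12b) and -0.94 to -0.71 (Sgpp2 to Sgpl1). Replicate numbers did not pair the libraries: deviations of same-numbered libraries correlated at 0.057, -0.14, -0.12 and -0.20, and 0 of 8 libraries correlated best with its own number. With the replicate block 10 members were higher and 12 lower, and over all genes 2973 were higher and 2732 lower. Among marker lists, basal keratinocyte genes higher numbered 2 with DESeq2. Suprabasal genes lower numbered 0 with library sizes alone, 1 with no filter and 0 with the replicate block, and 0 to 2 without single libraries. Adipocyte genes lower numbered 10 with library sizes alone and 2 to 8 without single libraries. Skeletal muscle genes lower numbered 7 with upper quartile factors, 8 with library sizes alone, 7 with no filter and 0 to 9 without single libraries. Sebaceous genes lower numbered 5 to 9 without single libraries. The cause was not tested. With 4 libraries a group, the median standard error of a member's log2 fold change was 0.16, which limits what smaller differences can show.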
